A study of Mus musculus with 12 samples.

Results

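Tdpoz3, Tdpoz4, Tcstv1, Tcstv3, AF067061, Gm5662 and Zfp352 are mouse genes known for a burst of transcription in the embryo at the 2-cell stage. They were found in the count table through the gene symbols of the authors' comparison tables, joined by Ensembl identifier, and all 7 were present among the 22753 genes listed. RNA sequencing had been done on mouse embryonic stem cells that lack Sphk2 and carry a floxed Sphk1, the genes of the enzymes that make sphingosine 1-phosphate. Clones 10 and 4 both spent 48 hours in (Z)-4-hydroxytamoxifen at 6 uM and were then sorted by the fluorescence of Cre-GFP. This gave 4 groups of 3 libraries: clone 10 GFP-positive (Sphk1-/- Sphk2-/-), clone 10 GFP-negative (Sphk1fl/fl Sphk2-/-), clone 4 GFP-positive (Sphk1-/- Sphk2-/-) and clone 4 GFP-negative (Sphk1fl/fl Sphk2-/-). Every cell, the GFP-negative ones included, was therefore Sphk2-null and tamoxifen-treated. Each clone is a single line, and no source used here gives the promoter that drives Cre-GFP. Labelled passages of replicates 1, 2 and 3 were 12, 18 and 20 in clone 10 GFP-positive, 11, 17 and 19 in clone 10 GFP-negative, 11, 14 and 16 in clone 4 GFP-positive and 11, 13 and 15 in clone 4 GFP-negative libraries. In replicates 2 and 3 the passages rise by 1 from sample to sample, across gates and clones, so these labels may not be accurate. Whether replicates came from separate cultures or sorts is left unsaid by the labels, so every p-value reflects only how these libraries varied, which may be technical in part.

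A small and changing minority of mouse embryonic stem cells passes through a state that resembles the 2-cell embryo, in which Zscan4, Tdpoz, Tcstv, Zfp352 and MERVL transcripts are made together. The factor Dux can switch the state on, and chromatin repressors such as the KAP1 complex hold it down. In a bulk library, fewer cells in such a state and less RNA per cell cannot be told apart. Tdpoz proteins join a TRAF domain to a POZ domain, as the ubiquitin ligase adaptor SPOP does, and the authors' deposited table lists SPOP as the human ortholog of Tdpoz3. Tcstv1 and Tcstv3 were named for variable expression at the 2-cell stage and have been linked to telomere elongation in mouse embryonic stem cells. Zfp352 is a zinc-finger gene of the early embryo. For Gm5662 the authors' deposited table lists EIF1AY, a translation initiation factor gene, as the human ortholog.

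Several of the genes are copies of each other, which bears on how reads could be assigned to them. Tcstv1 (chr13:119893467-119894746, minus strand), AF067061 (chr13:120263114-120264517, plus strand) and Tcstv3 (chr13:120317567-120318076, plus strand) lie in the same part of chromosome 13 in mm10. Their coding sequences in GENCODE M21 (build GRCm38) were 93.6% identical between Tcstv1 and Tcstv3, 95.3% between Tcstv1 and AF067061 and 94.8% between Tcstv3 and AF067061, with gaps counted as differences. Tdpoz4 (chr3:93796398-93797510, plus strand) and Tdpoz3 (chr3:93826020-93827117, plus strand) are neighbours on chromosome 3 and were 75.5% identical. The first 90 coding bases are shown because they show how nearly the copies agree. They are written 5′ to 3′, with capitals for bases that differ from Tcstv1 in the first set and from Tdpoz3 in the second.
Tcstv1: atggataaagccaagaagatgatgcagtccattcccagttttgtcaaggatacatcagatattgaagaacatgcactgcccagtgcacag
Tcstv3: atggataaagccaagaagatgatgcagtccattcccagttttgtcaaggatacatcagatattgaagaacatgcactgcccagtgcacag
AF067061: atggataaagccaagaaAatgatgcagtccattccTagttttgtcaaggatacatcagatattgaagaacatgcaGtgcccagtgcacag
Tdpoz3: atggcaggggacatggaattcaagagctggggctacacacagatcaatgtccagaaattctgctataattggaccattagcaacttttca
Tdpoz4: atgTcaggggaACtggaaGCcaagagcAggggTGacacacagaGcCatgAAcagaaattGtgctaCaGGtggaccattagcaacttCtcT

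Tcstv3 had no difference from Tcstv1 over these 90 bases and AF067061 had 3, while Tdpoz4 had 18 differences from Tdpoz3. Of all 50-base words in each gene's GENCODE transcripts, 77.9% occurred in another gene for Gm5662, 66.2% for Tdpoz3, 41.2% for Tdpoz4, 31.4% for Tcstv3, 23.4% for AF067061, 15.0% for Tcstv1 and 7.09% for Zfp352. The gene that shared most words was Gm2016 for Gm5662, Gm4982 for Tdpoz3, Gm5541 for Tdpoz4, Gm21818 for both Tcstv genes, Gm21761 for AF067061 and Zfp353-ps for Zfp352. Values of single Tdpoz, Tcstv, AF067061 and Gm5662 genes are uncertain for that reason. Neither the annotation release nor the strand setting of the authors' counting was given in the sources used here, and an overlapping or antisense gene could therefore add reads too.

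RefSeq windows (GRCm38.p6) matched 3 of the 7 genes: Zfp352, AF067061 and Tdpoz4. The 250 bases upstream of the Zfp352 and AF067061 starts are shown because both hold the word TAATCC several times, capitalised here on either strand. Zfp352 is at chr4:90218570-90218819, plus strand, and AF067061 at chr13:120262845-120263094, plus strand.
Zfp352: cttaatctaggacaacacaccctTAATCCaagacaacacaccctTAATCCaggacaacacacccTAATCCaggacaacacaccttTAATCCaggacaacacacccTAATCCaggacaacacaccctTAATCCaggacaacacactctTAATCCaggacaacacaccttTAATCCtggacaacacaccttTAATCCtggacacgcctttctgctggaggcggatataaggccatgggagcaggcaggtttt
AF067061: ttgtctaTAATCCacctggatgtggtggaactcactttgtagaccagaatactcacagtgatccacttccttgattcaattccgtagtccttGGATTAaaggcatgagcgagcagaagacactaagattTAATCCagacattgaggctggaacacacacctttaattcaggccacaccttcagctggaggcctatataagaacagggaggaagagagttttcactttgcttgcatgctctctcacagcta

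TAATCC occurred 9 times in the Zfp352 window, all on the plus strand and most within a repeated unit, 3 times in the AF067061 window, once of these on the minus strand, and 0 times in the Tdpoz4 window. This word was picked after the windows had been read, and the longer word TTTAATCC, which contains it, was too. Over the 250-base windows of 32851 RefSeq promoters, 6.25% held TAATCC on either strand and 0.0244% held it 3 or more times. TTTAATCC occurred 3 times in Zfp352, 2 times in AF067061, 0 times in Tdpoz4 and in 0.974% of all windows. GATTNAATC, a Dux-like word, occurred once in AF067061, where it overlaps one of the TAATCC copies, 0 times in Zfp352 and Tdpoz4, and in 0.247% of all windows. TGCACAC, a Zscan4-like word (3.67% of windows), and TATAAA (12.4%) had no match in these 3 windows. CACCC (52.0%) occurred 5 times in Zfp352 only. A match describes letters and not a binding site, and no match says only that the letters are not in the window. The Tdpoz4 window ends at chr3:93796397, the base before the coding sequence of the model used here, so it may not hold the promoter.

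Library totals ran from 12968916 counts (clone 10 GFP-negative replicate 1) to 34258395 counts (clone 4 GFP-positive replicate 3). The targeted gene Sphk1 stood at 0.694 to 4.30 CPM (the read count scaled by the library's total count) and was not called lower in GFP-positive cells (log2 change -0.63, SE 0.46, adjusted p = 0.767 for both clones). The gene total may include reads from exons outside the floxed part, so it checks the labels only weakly. All 8 embryonic stem cell markers had counts in every library, with a summed 4923 to 6768 CPM in GFP-positive and 5063 to 10110 CPM in GFP-negative libraries. The 12 fibroblast markers were present too, with sums of 893 to 1799 CPM in clone 10 GFP-positive, 469.8 to 2792 CPM in clone 10 GFP-negative, 877 to 1435 CPM in clone 4 GFP-positive and 974.7 to 2245 CPM in clone 4 GFP-negative libraries. Of these markers Fn1 alone had 397 to 1859 CPM, while the others had medians of 52.4 CPM (Fbln2) or less over the 12 libraries. Lum was at 0 in 4 libraries. Within pairs of libraries 5 of 11 fibroblast markers tested were called lower in GFP-positive cells over both clones, 2 in clone 4 and 0 in clone 10. Over all libraries all 11 had a negative change in each clone, with a median of -1.45 in clone 4 and -0.81 in clone 10. In the fit over both clones 510 of 15179 genes were called, 381 of them higher. The part of these markers in the results was not tested.

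Together the 7 genes were higher in GFP-positive than in GFP-negative cells of both clones, and much higher in clone 10 than in clone 4. Their summed level was 1590, 268 and 888 CPM in clone 10 GFP-positive replicates 1, 2 and 3, against 97.4, 37.8 and 34.3 CPM in clone 10 GFP-negative replicates. In clone 4 it was 99.6, 13.2 and 6.77 CPM in GFP-positive replicates, against 8.57, 2.19 and 2.02 CPM in GFP-negative replicates. The groups did not overlap in clone 10, and in clone 4 they overlapped, since GFP-positive replicate 3 lay below GFP-negative replicate 1. The means were 915 ± 662 CPM in clone 10 GFP-positive, 56.5 ± 35.5 CPM in clone 10 GFP-negative, 39.9 ± 51.9 CPM in clone 4 GFP-positive and 4.26 ± 3.73 CPM in clone 4 GFP-negative libraries (SD, n = 3 each). The SD was close to or above the mean in clone 4, where replicate 1 exceeded the others in both gates.

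**Figure D1:**
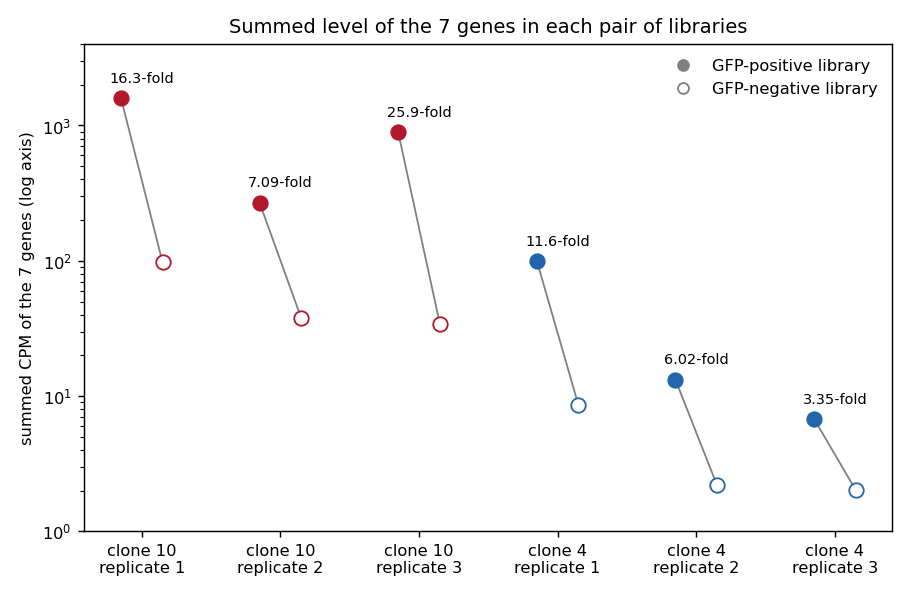
Summed CPM of the 7 genes (log axis) in each same-numbered pair of libraries, with the GFP-positive library filled and on the left and the GFP-negative library open and on the right. The GFP-positive library was higher in all 6 pairs, by 7.09-fold to 25.9-fold in clone 10 (red) and by 3.35-fold to 11.6-fold in clone 4 (blue).

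The same-numbered GFP-positive and GFP-negative libraries of a clone varied together (given under the processing), so each change is reported in both fits: over all libraries, and within pairs. In the pairs the summed level was 16.3, 7.09 and 25.9 times higher in GFP-positive cells of clone 10 replicates 1, 2 and 3, and 11.6, 6.02 and 3.35 times higher in clone 4. Tdpoz3, Tcstv1, Tcstv3, AF067061, Gm5662 and Zfp352 were each higher in the GFP-positive library of all 6 pairs, a pattern shown by 8.29% of all genes tested. Tdpoz4 was higher in 5 pairs and at 0 counts in both libraries of clone 4 replicate 2. The clone 10 gates were fully apart for all 7 genes, as for 10.9% of all genes in that direction. The clone 4 gates were apart for Gm5662 and Zfp352 alone of the 7, as for 1.61% of all genes.

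**Figure D2:**
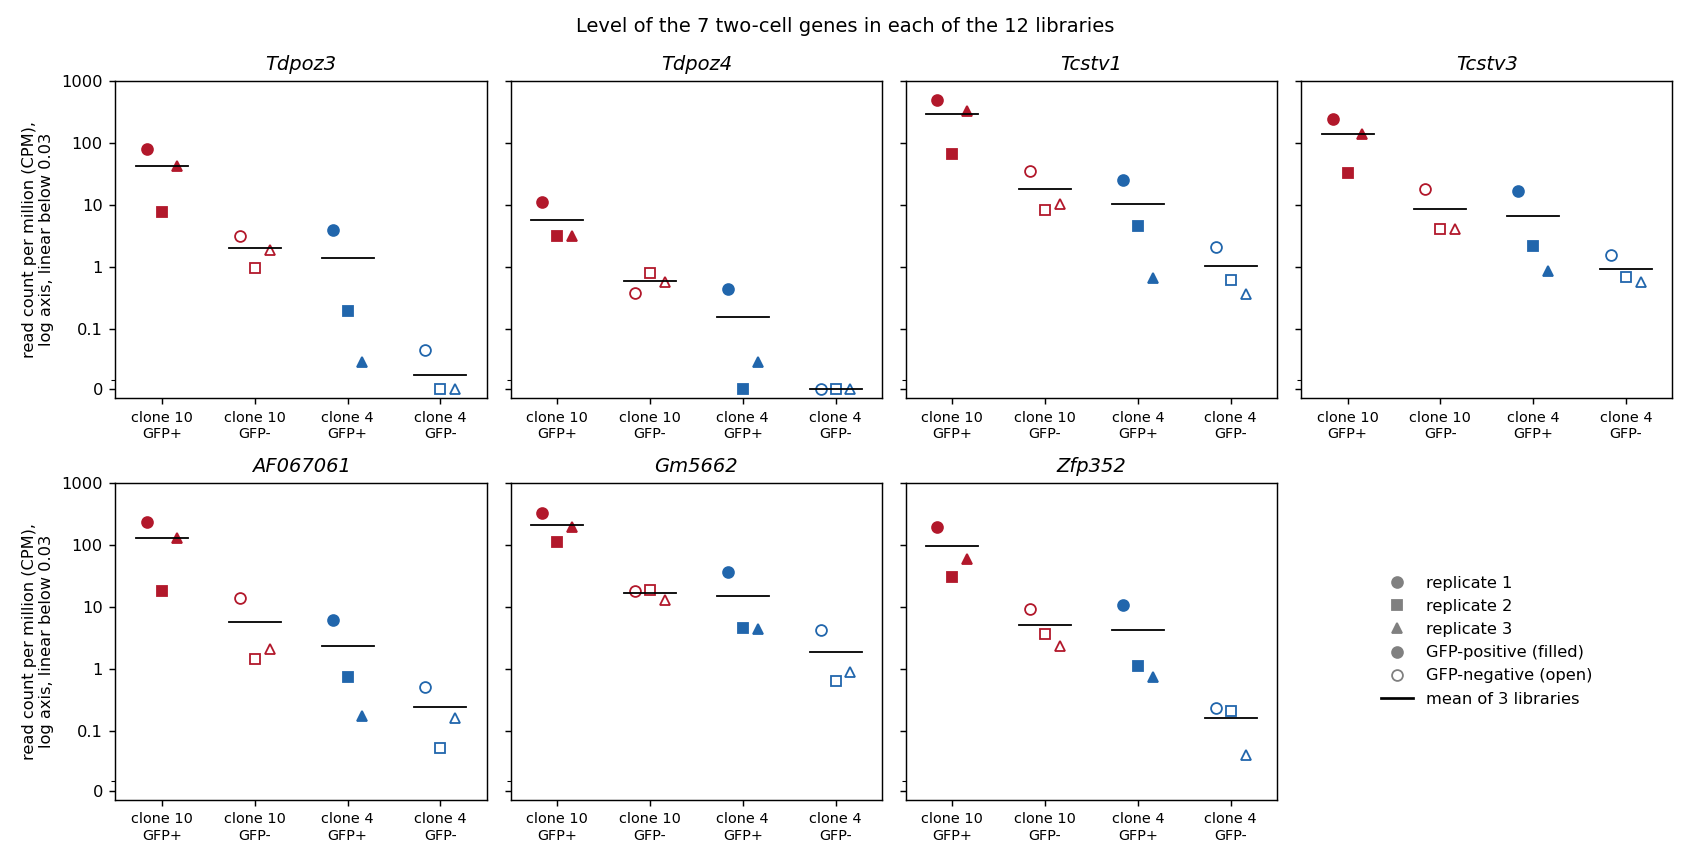
CPM of each gene in the 12 libraries, on a log axis that is linear below 0.03; marker shapes give the replicate and black lines the mean of 3 libraries. In each panel the clone 10 GFP-positive libraries lie above all others, and replicate 1 is the highest clone 4 GFP-positive library.

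By edgeR's quasi-likelihood test over all libraries with Benjamini-Hochberg adjustment, 0 of the 7 genes passed an adjusted p of 0.05 in either clone, where 0% of all genes were called higher in clone 10 and 0% in clone 4. At an unadjusted p under 0.05 there were 7 in clone 10 (5.36% of all genes higher) and 6 in clone 4 (1.06%). DESeq2 called 4 in clone 10 (1.86%) and 1 in clone 4 (0.191%), and limma-voom called 1 in clone 10 (0.29%) and 0 in clone 4 (0%). For the mean of both clones edgeR called 0 of 7 over all libraries, with 0.152% of all genes called higher. There 7 had an unadjusted p under 0.05 (4.82% of all genes), and DESeq2 called 7 (1.82%) and limma-voom 0 (0.00659%). Within pairs all 7 rose in GFP-positive cells of clone 10 (3.49% of all genes called higher), 3 rose in clone 4 (0.0725%) and 6 rose over both clones (2.51%). The 3 called in clone 4 were Tdpoz3, Gm5662 and Zfp352, each at an adjusted p of 0.0492, and none of the 3 passed without any 1 of the clone 4 pairs. The median log2 change within pairs was 3.79 in clone 10 and 3.01 in clone 4, against -0.01 and 0.00 over all genes tested. With Tdpoz4, which had no count in clone 4 GFP-negative cells, set at its lower bound, the clone 4 median was 2.93.

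**Figure D3:**
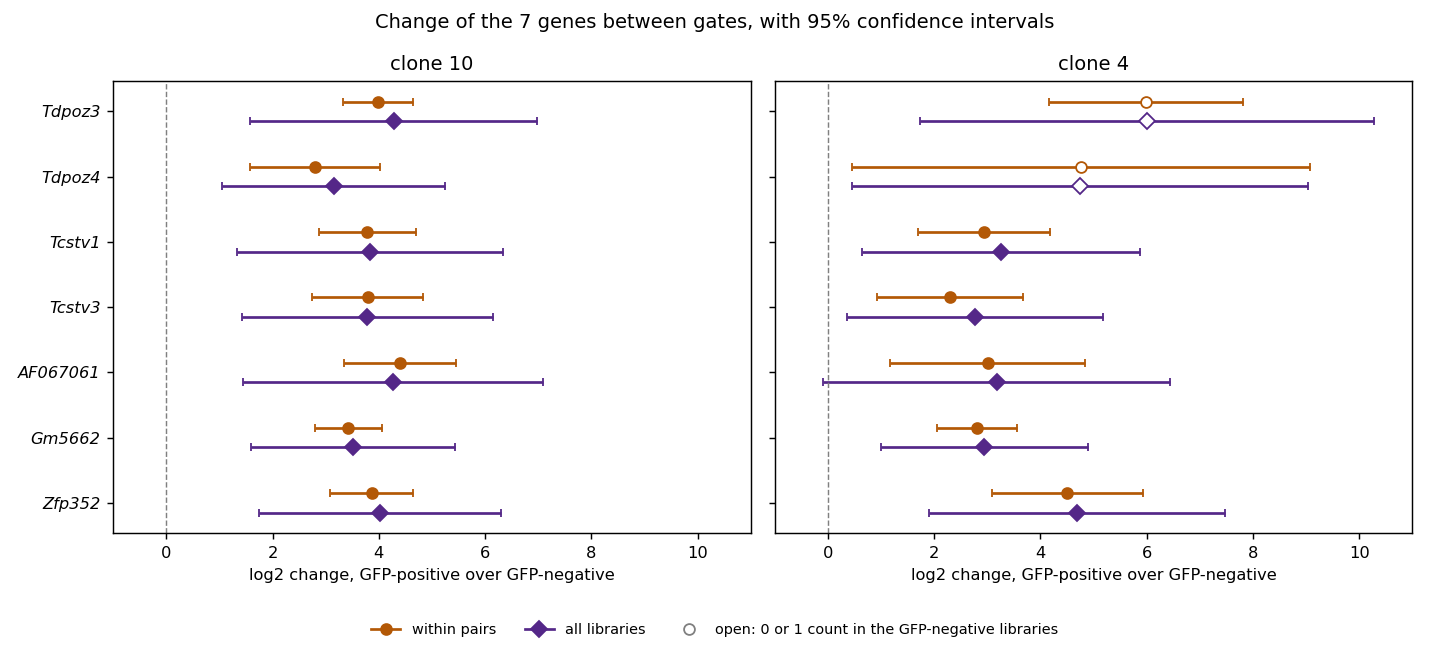
Log2 change of each gene, GFP-positive over GFP-negative cells, with 95% confidence intervals, in clone 10 and clone 4; circles are the fit within pairs and diamonds the fit over all libraries. Of the intervals over all libraries only that of AF067061 in clone 4 (-0.09 to 6.45) reaches 0, and open symbols mark fits that rest on 0 or 1 count in GFP-negative cells.

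Of the Tdpoz genes, Tdpoz3 had 78.6, 7.77 and 42.6 CPM in clone 10 GFP-positive replicates, against 3.16, 0.951 and 1.86 CPM in clone 10 GFP-negative replicates. In clone 4 it had 3.94, 0.194 and 0.0292 CPM in GFP-positive replicates, against 0.0456, 0 and 0 CPM in GFP-negative replicates. Almost all clone 4 signal came from GFP-positive replicate 1, which held 82 of the 87 counts of that group. Within pairs Tdpoz3 rose by 3.98 on the log2 scale in clone 10 (SE 0.29, adjusted p = 0.00129), against 4.28 (SE 1.24, adjusted p = 0.266) over all libraries. In clone 4 the pooled counts were 87 in GFP-positive and 1 in GFP-negative libraries, a ratio of pooled CPM of 75.7 with a 95% counting interval of 13.2 to 3022. The fitted clone 4 changes of 5.99 within pairs (SE 0.80) and 6.00 over all libraries (SE 1.96) depend on that single count.

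Tdpoz4, the neighbour of Tdpoz3, had 11.1, 3.19 and 3.15 CPM in clone 10 GFP-positive replicates, against 0.386, 0.797 and 0.573 CPM in clone 10 GFP-negative replicates. In clone 4 there were 9, 0 and 1 counts in GFP-positive replicates, against 0 counts in all 3 GFP-negative replicates. Clone 10 groups were apart, and clone 4 groups lay at the edge of detection, where 3 counts over the 3 GFP-negative libraries correspond to 0.0456 CPM. Taking that floor over the group, Tdpoz4 was at least 2.90-fold higher in clone 4 GFP-positive cells. Within pairs it rose in clone 10 by 2.80 on the log2 scale (SE 0.51, adjusted p = 0.0347), against 3.15 over all libraries (SE 0.94, adjusted p = 0.333). It was the only one of the 7 genes that did not pass for the mean of both clones within pairs (3.78, SE 0.89, adjusted p = 0.0783). Only the clone 10 GFP-positive group brought Tdpoz4 past the filter on low counts, so its presence among the genes tested is tied to that group.

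The ratio of Tdpoz3 to Tdpoz4 counts differed between libraries more than counting allows. It was 7.08 (95% counting interval 6.13 to 8.22), 2.43 (1.93 to 3.08) and 13.5 (10.5 to 17.7) in clone 10 GFP-positive replicates, against 8.20 (3.24 to 26.6), 1.19 (0.69 to 2.09) and 3.25 (1.67 to 6.82) in clone 10 GFP-negative replicates. Replicate 2 had the lowest ratio in both gates. With counts of both genes summed before the fit, the change within pairs was 3.74 in clone 10 (SE 0.33, adjusted p = 0.00164). In clone 4 it was 6.14 (SE 0.93, adjusted p = 0.0565), against an adjusted p of 0.0492 for Tdpoz3 alone. The genes found to share 50-base words with Tdpoz3 were Gm4982, Tdpoz1, Gm9117 and Gm9125. Tdpoz4 was not among them, so this sum does not test the effect of shared reads. Of the other family members in the table, Tdpoz1 averaged 20.3 ± 13.1 CPM in clone 10 GFP-positive and 1.54 ± 0.33 CPM in clone 10 GFP-negative libraries, and rose within pairs over both clones (2.91, SE 0.37, adjusted p = 0.00483). Tdpoz2 averaged 3.58 ± 1.51 and 0.551 ± 0.165 CPM in those groups, with a change of 1.97 (SE 0.44, adjusted p = 0.0510). Both passed within pairs in clone 10 alone, and neither in clone 4.

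Of the Tcstv genes, Tcstv1 had 499, 66.7 and 325 CPM in clone 10 GFP-positive replicates, against 35.0, 8.43 and 10.5 CPM in clone 10 GFP-negative replicates. Clone 4 gave 25.4, 4.50 and 0.671 CPM in GFP-positive replicates, against 2.10, 0.625 and 0.364 CPM in GFP-negative replicates. Clone 4 GFP-positive libraries thus spanned a 37.8-fold range and overlapped the GFP-negative ones. Within pairs Tcstv1 rose by 3.79 in clone 10 (SE 0.40, adjusted p = 0.00212), with 3.83 over all libraries (SE 1.15, adjusted p = 0.291). In clone 4 the change was 2.93 within pairs (SE 0.54, adjusted p = 0.100) and 3.26 over all libraries (SE 1.20, adjusted p = 1).

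Tcstv3 had 244, 32.8 and 140 CPM in clone 10 GFP-positive replicates, against 17.9, 4.17 and 4.11 CPM in clone 10 GFP-negative replicates. The clone 4 values were 16.7, 2.18 and 0.847 CPM in GFP-positive replicates, against 1.55, 0.677 and 0.567 CPM in GFP-negative replicates. The replicates kept the order of Tcstv1 except that clone 10 GFP-negative replicates 2 and 3 were nearly equal. Within pairs Tcstv3 rose by 3.79 in clone 10 (SE 0.46, adjusted p = 0.00344), and changed by 2.297 in clone 4 (SE 0.61, adjusted p = 0.336), the smallest clone 4 value among the 7 genes. Over all libraries the values were 3.79 (SE 1.08, adjusted p = 0.256) and 2.77 (SE 1.11, adjusted p = 1).

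AF067061 had 234, 17.6 and 129 CPM in clone 10 GFP-positive replicates, against 13.6, 1.44 and 2.05 CPM in clone 10 GFP-negative replicates. In clone 4 it had 6.11, 0.726 and 0.175 CPM in GFP-positive replicates, against 0.501, 0.0521 and 0.162 CPM in GFP-negative replicates. Replicate 3 of clone 4 held 6 counts in the GFP-positive and 4 in the GFP-negative library, which is no detectable difference at that depth. Within pairs AF067061 had the largest change of the 7 genes in clone 10 (4.40, SE 0.46, adjusted p = 0.00212), against 4.27 over all libraries (SE 1.29, adjusted p = 0.301). In clone 4 it changed by 3.01 within pairs (SE 0.81, adjusted p = 0.360) and by 3.18 over all libraries (SE 1.501, adjusted p = 1). In the authors' deposited table for clone 10, AF067061 alone of the 7 genes did not pass, with an adjusted p of 0.213. Among all genes listed there, 418 passed, and 409 of these were higher in GFP-positive cells. The authors' log2 changes of the 7 genes ran from 1.01 (AF067061) to 2.72 (Gm5662), each below the values of both fits here. In their clone 4 table the log2 changes ran from 0.20 (Tdpoz4) to 0.97 (Zfp352), again each below the values of both fits here. All 7 genes had no adjusted p there, and only Tdpoz4 had an unadjusted p.

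The 3 near-identical genes did not keep one ratio. Tcstv1 had 2.04, 2.04 and 2.32 times the counts of Tcstv3 in clone 10 GFP-positive replicates, against 1.96, 2.02 and 2.57 times in clone 10 GFP-negative replicates, so within this clone the gates had like values. In clone 4 it had 1.52, 2.07 and 0.793 times the Tcstv3 counts in GFP-positive replicates, against 1.35, 0.923 and 0.643 times in GFP-negative replicates. Counts in the last of these were 9 and 14, with a 95% counting interval of 0.245 to 1.59. AF067061 had 0.470, 0.264 and 0.396 times the counts of Tcstv1 in clone 10 GFP-positive replicates, against 0.388, 0.171 and 0.195 times in clone 10 GFP-negative replicates. With the 3 genes summed before the fit, the change within pairs was 3.89 in clone 10 (SE 0.48, adjusted p = 0.00385) and 2.51 in clone 4 (SE 0.57, adjusted p = 0.202).

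Gm5662, the gene with the most shared words, had 328, 110 and 190 CPM in clone 10 GFP-positive replicates, against 18.0, 18.3 and 12.8 CPM in clone 10 GFP-negative replicates. Clone 4 gave 36.3, 4.45 and 4.29 CPM in GFP-positive replicates, against 4.15, 0.625 and 0.890 CPM in GFP-negative replicates. Its clone 10 GFP-negative libraries differed by at most 1.43-fold, the narrowest range of the 7 genes in any group, and neither clone's gates overlapped. Within pairs Gm5662 rose by 3.43 in clone 10 (SE 0.28, adjusted p = 0.00147) and by 2.81 in clone 4 (SE 0.33, adjusted p = 0.0492). Over all libraries the changes were 3.52 (SE 0.88, adjusted p = 0.190) and 2.95 (SE 0.89, adjusted p = 1). With 77.9% of its words found elsewhere, its counts may hold reads of its copies, or lack reads that could not be placed.

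Zfp352 had 195, 29.9 and 57.7 CPM in clone 10 GFP-positive replicates, against 9.33, 3.65 and 2.34 CPM in clone 10 GFP-negative replicates. The clone 4 values were 10.8, 1.11 and 0.730 CPM in GFP-positive replicates, against 0.228, 0.208 and 0.0405 CPM in GFP-negative replicates. Neither clone's gates overlapped, although the clone 4 GFP-negative libraries held only 5, 4 and 1 counts. Within pairs Zfp352 rose by 3.87 in clone 10 (SE 0.34, adjusted p = 0.00174) and by 4.51 in clone 4 (SE 0.62, adjusted p = 0.0492). Over all libraries the changes were 4.02 (SE 1.04, adjusted p = 0.201) and 4.68 (SE 1.28, adjusted p = 1). Zfp352 had the fewest shared words of the 7 genes.

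The size of the gate change did not differ detectably between the clones for any of the 7 genes. By edgeR's quasi-likelihood test 0 of 7 passed over all libraries and 0 within pairs, with 0% of all genes called in this direction in either fit. At an unadjusted p under 0.05 there were 0 of 7 over all libraries (0.863% of all genes higher) and 0 within pairs (4.72%), and DESeq2 and limma-voom called 0 (0% each). Within pairs the change of clone 10 minus that of clone 4 was 1.495 for Tcstv3 (95% confidence interval -0.25 to 3.24), 1.39 for AF067061 (-1.06 to 3.84), 0.85 for Tcstv1 (-0.71 to 2.42), 0.62 for Gm5662 (-0.35 to 1.59) and -0.64 for Zfp352 (-2.37 to 1.09). All 5 intervals include 0, and the values of Tdpoz3 and Tdpoz4 rest on 1 and 0 counts in clone 4 GFP-negative cells.

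Between the clones, all 7 genes stood higher in clone 10 in both gates without any overlap of libraries, as did 11.5% of all genes in GFP-positive and 4.29% in GFP-negative cells. In GFP-positive cells the log2 change of clone 10 over clone 4 ran from 3.86 for Gm5662 (SE 0.89) to 5.83 for AF067061 (SE 1.40). By edgeR's quasi-likelihood test with Benjamini-Hochberg adjustment these missed the threshold narrowly, with adjusted p from 0.0509 for Tdpoz4 to 0.0763 for Tdpoz3, so 0 of 7 were called where 0.83% of all genes were called higher. All 7 had an unadjusted p under 0.05 (7.53% of all genes higher), and DESeq2 (3.68%) and limma-voom (2.19%) each called all 7. Without clone 4 GFP-positive replicate 1, edgeR called all 7 as well (1.45%), and the changes then ran from 5.56 (Gm5662) to 8.69 (Tdpoz3). Without replicate 2 of that group the adjusted p ran from 0.175 to 0.263, and without its replicate 3 from 0.134 to 0.148. Without clone 10 GFP-positive replicate 1 the changes ran from 3.38 (Gm5662) to 5.02 (AF067061), with adjusted p from 0.205 to 0.259. In GFP-negative cells 0 of 7 were called (0.0395% of all genes called higher), with adjusted p from 0.159 for Zfp352 to 0.270 for Tcstv3. DESeq2 called 6 of them (1.57% of all genes) and limma-voom 0 (0.0527%), and all 7 again had an unadjusted p under 0.05 (5.7%).

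In GFP-negative cells the changes between clones were 5.21 for Zfp352 (SE 1.29), 4.74 for AF067061 (SE 1.51), 4.35 for Tcstv1 (SE 1.24), 3.44 for Tcstv3 (SE 1.13) and 3.28 for Gm5662 (SE 0.90). For the Tdpoz genes, whose clone 4 GFP-negative libraries held 1 and 0 counts, Tdpoz3 had a ratio of pooled CPM of 109.9 (95% counting interval 19.3 to 4377) and Tdpoz4 was at least 14.2-fold higher in clone 10. For all 7 genes even the clone 10 GFP-negative mean lay above the clone 4 GFP-positive mean. Gm5662, for example, averaged 16.4 ± 3.12 CPM in clone 10 GFP-negative and 15.0 ± 18.4 CPM in clone 4 GFP-positive cells, and Tcstv1 18.0 ± 14.8 and 10.2 ± 13.3 CPM in these groups (SD, n = 3 each). Both differences were smaller than the SD in clone 4. A clone is a single line, and the later replicates of clone 10 carry higher passage labels than those of clone 4. Passage as labelled and clone therefore cannot be told apart in replicates 2 and 3, and those labels may not be accurate. With passage as a covariate edgeR called 7 of 7 in GFP-positive cells (1.9% of all genes called higher) and 1 of 7 in GFP-negative cells (0.119%).

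Replicates of a group differed widely and in step. Replicate 1 was the highest library for all 7 genes in clone 10 GFP-positive and clone 4 GFP-positive cells, for all 6 genes with a count in clone 4 GFP-negative cells and for 5 of 7 in clone 10 GFP-negative cells. The exceptions were Tdpoz4 and Gm5662. Among genes with more than 3 counts in each library of a group, the highest replicate exceeded the lowest by 2.99-fold to 13.3-fold in clone 10 GFP-positive, by 1.43-fold to 9.42-fold in clone 10 GFP-negative, by 8.46-fold to 37.8-fold in clone 4 GFP-positive and by 2.74-fold to 6.64-fold in clone 4 GFP-negative cells. Replicate 1 also had the earliest labelled passages, 11 and 12, and clone 10 GFP-negative replicate 1 had the smallest total and the lowest mitochondrial share of counts (0.143%, against 0.594% to 2.32% in the other libraries). Without that library the changes over all libraries in clone 10 ran from 3.002 (Tdpoz4) to 6.12 (AF067061). With passage as a covariate edgeR over all libraries called 4 of 7 in clone 10 (0.56% of all genes called higher), 0 in clone 4 (0%) and 6 over both clones (0.856%). The part of the total and of the mitochondrial share was not tested otherwise. Without replicate 1 of both clones, an alternative chosen after the data had been seen, edgeR within pairs called 7 of the 7 in clone 10 (7.38% of all genes called higher), 0 in clone 4 (0.19%) and 2 for the mean of both (3.77%). Without clone 4 GFP-positive replicate 1 alone, the clone 4 changes over all libraries were 2.34 for Tdpoz3, 2.12 for Tdpoz4, 1.28 for Tcstv1, 0.68 for Tcstv3, 0.80 for AF067061, 1.24 for Gm5662 and 2.56 for Zfp352. With that library they were 6.00, 4.75, 3.26, 2.77, 3.18, 2.95 and 4.68 in the same order. Within pairs and without the clone 4 replicate 1 pair they ran from 1.21 for Tcstv3 to 4.29 for Tdpoz3.

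Scaled by exon length, Tcstv3 stood highest in all 4 groups and Tdpoz4 lowest. In clone 10 GFP-positive cells the order of mean level per length was Tcstv3 (272.7 ± 207.3 CPM per kb), Tcstv1 (231.9 ± 169.9), Gm5662 (113.8 ± 60.0), AF067061 (90.4 ± 77.2), Zfp352 (41.4 ± 38.9), Tdpoz3 (39.2 ± 32.3) and Tdpoz4 (5.22 ± 4.11; SD, n = 3 each). Every neighbouring pair in that order overlapped in range. Within libraries, Tcstv3 exceeded Tcstv1, Gm5662 exceeded AF067061 and Tdpoz3 exceeded Tdpoz4 in 3 of 3, and the other neighbours kept the order in 2 of 3. In clone 10 GFP-negative cells the order was the same, and only Tdpoz3 and Tdpoz4 did not overlap (1.81 ± 1.01 and 0.526 ± 0.185 CPM per kb). In clone 4 GFP-positive cells Gm5662 (8.16 ± 10.0 CPM per kb) came above Tcstv1 (7.96 ± 10.4) and Zfp352 (1.85 ± 2.50) above AF067061 (1.66 ± 2.33), differences within their spread. In clone 4 GFP-negative cells Gm5662 again came second (1.03 ± 1.07 CPM per kb), and all neighbours overlapped there as in clone 4 GFP-positive cells. The models of Tdpoz3 (1098 bases), Tdpoz4 (1113) and Tcstv3 (510) hold coding sequence only, while those of Tcstv1 (1280), AF067061 (1404), Gm5662 (1840) and Zfp352 (2276) also hold untranslated exon, so levels per length compare unlike models.

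**Figure D4:**
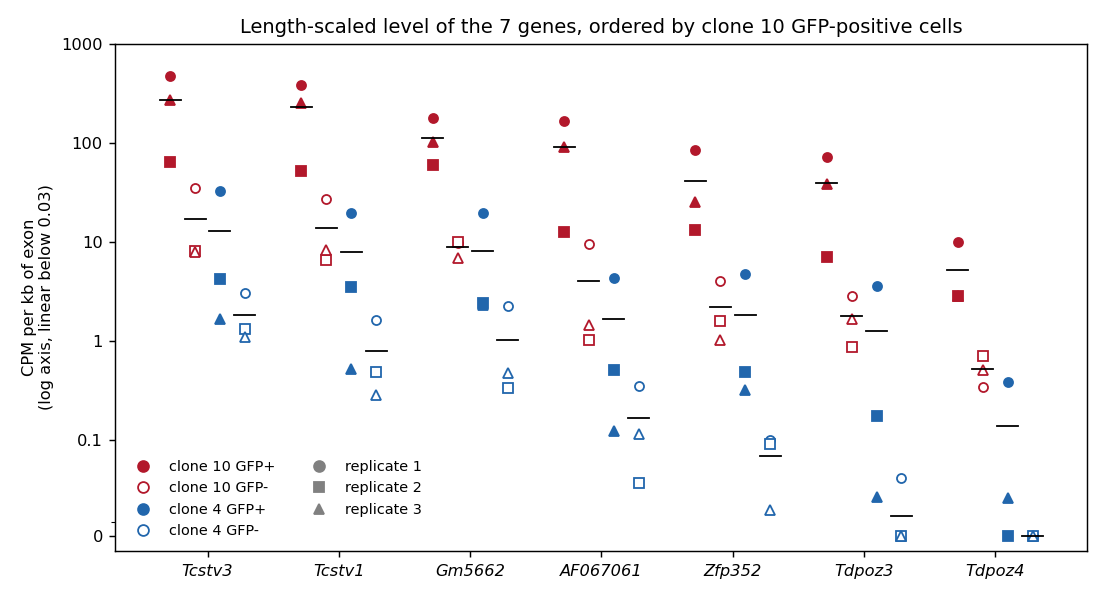
CPM per kb of exon of each gene (log axis, linear below 0.03), ordered by the mean in clone 10 GFP-positive cells; for each gene the groups run from left to right as in the legend, shapes are replicates and black lines group means. Tcstv3 and Tcstv1 lead in clone 10 GFP-positive cells at 272.7 and 231.9 CPM per kb, and Tdpoz4 is lowest in every group.

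Across libraries the 7 genes varied together. Their log2 CPM values correlated between genes at 0.921 to 0.995 (Pearson's r, 21 pairs of genes over 12 libraries), lowest for Tdpoz4 with AF067061 and highest for Tcstv3 with AF067061. Each gene correlated with the mean of the others at 0.946 (Tdpoz4) to 0.992 (Tdpoz3). These values describe libraries that share 2 clones, 2 gates and pairing, and copies that may share reads. Outside the 7, the genes closest to their mean profile, predicted names passed over, were Usp17lc (r = 0.996), BC080695 (0.992), BB287469 (0.992), Sp110 (0.991) and Ankrd22 (0.991). Usp17lc belongs to a family of ubiquitin-specific proteases, and BB287469 and Ankrd22 were on none of the lists of 2-cell genes used here. Usp17lc averaged 186 CPM in clone 10 GFP-positive, 11.7 CPM in clone 10 GFP-negative, 9.08 CPM in clone 4 GFP-positive and 0.930 CPM in clone 4 GFP-negative libraries, and Ankrd22 16.1, 2.00, 1.57 and 0.254 CPM in the same order.

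Every tested gene of the Zscan4 and Usp17-like families and of the list of other 2-cell genes had a positive change over all libraries in both clones. All 5 measured Zscan4 genes, which encode zinc-finger proteins of the same embryo stage, rose within pairs in clone 10, 2 rose in clone 4, and 4 were called over all libraries for the mean of both clones. Zscan4e averaged 217 ± 133 CPM in clone 10 GFP-positive and 7.35 ± 1.32 CPM in clone 10 GFP-negative libraries, with a change over both clones of 4.44 (SE 0.57, adjusted p = 0.0311). All 5 Usp17-like genes were called higher within pairs in clone 10. In clone 4, where their median change within pairs was 2.73, 0 were called, and 2 were called over all libraries for both clones. Of the other 2-cell genes 13 of 18 were in the table and 10 passed the filter on low counts. Of these 10, 9 were called higher within pairs in clone 10, 2 in clone 4 (median change 2.65) and 8 over both clones. Over all libraries for both clones 0 of these 10 were called. Their median log2 change within pairs over both clones was 3.01, against 4.14 for the Zscan4 genes, 3.36 for the Usp17-like genes, 3.70 for the 7 genes described here and 0.00 over all genes tested. No test of a difference between these medians was made.

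Of 10 genes reported to hold down or drive the state, among them Dppa2, Dppa4, Trim28, Setdb1 and Kdm1a, 0 were called higher in either clone within pairs. In clone 10, 1 was called lower, and the median change of the 10 over both clones was -0.05. The 3 with the smallest unadjusted p over all libraries for both clones were Chaf1b, a subunit of chromatin assembly factor 1, the histone methyltransferase gene Ehmt2 and the zinc-finger gene Zmym2. Their adjusted p by edgeR's quasi-likelihood test was 0.647, 0.684 and 0.757 there. Within pairs their changes were -0.36 (SE 0.12, adjusted p = 0.129), -0.36 (SE 0.10, adjusted p = 0.0828) and 0.45 (SE 0.15, adjusted p = 0.135) in that order. None of the 8 embryonic stem cell markers was called in either fit of the gate comparisons, at a median of -0.22 within pairs over both clones. Dux, which lies upstream of these genes in the 2-cell embryo, was on the list of other 2-cell genes, and no value of its own is given here.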

How the data were processed

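Libraries were made from total RNA with a TruSeq v2 kit, per the labels' protocols. The submitters' processing notes name STAR 2.3.0e, HTSeq 0.6.0, DESeq2, DESeq and mm10. One deposited table gives raw counts of reads by gene. Per the file headers, the authors' comparison table of each clone adds a signal for every library (its counts over a size factor), log2 fold changes and their errors, a score (fold over error) and p-values.

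The raw counts went into edgeR 4.0.16 (R 4.3.3), whose robust quasi-likelihood F test with TMM scaling was run in one fit of all 12 libraries, 1 term per group and 8 residual degrees of freedom. The low-count filter (in 3 or more libraries a level equal to 10 counts in the median one, and 15 in total) left 15179 of 22753 genes. All 7 members passed. Only 2 of them reached that level in all 3 clone 4 GFP-negative libraries, so their number among the genes tested is no support. P-values were adjusted by Benjamini-Hochberg over all genes tested, with calls at 0.05. Log2 CPM for correlations used a prior count of 2. Intervals cover 95%, those on counts covering counting error only.

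Replicate numbers of the labels were used to pair the gates within a clone. The labels do not say that same-numbered libraries share a culture or sort. Only clone 4 replicate 1 has the same labelled passage, 11, in both gates. Deviations from the group means correlated at 0.548 to 0.822 for same-numbered libraries and at -0.541 to -0.228 for others. Deviations from a group's own mean balance out, so positive values for same-numbered libraries bring negative ones for the others. The pairing thus rests on these same data. A fit with the 6 pairs as a block (4 residual degrees of freedom) gave the values within pairs. It cannot compare the clones within a gate. DESeq2 1.42.0, limma 3.58.1 (voom), other filters, scaling, passage, summed copies and omitted libraries were alternatives. The members and lists were chosen with earlier results of these data known. All members were named, with Sphk1, the 5 best-correlated other genes and up to 3 genes of each list by smallest p over all libraries for both clones. Coding sequences were aligned with MAFFT 7.526, and the fits were tested on simulated data.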

Additional observations from a re-analysis of the deposited data

How the results depend on the processing

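Every member's gate change within each clone and over both, and every difference between clones within a gate, was positive under every alternative run, but their size moved. Omitting clone 4 GFP-positive replicate 1 left clone 4 gate changes of 0.68 (Tcstv3) to 2.56 (Zfp352) over all libraries, and omitting clone 4 GFP-negative replicate 1 gave 3.37 (Tcstv3) to 7.91 (Tdpoz3). In clone 10, omitting GFP-positive replicate 1 gave 2.31 (Tdpoz4) to 3.49 (Tdpoz3). Between clones in GFP-negative cells, omitting clone 10 GFP-negative replicate 1 gave 2.24 (Tcstv3) to 7.13 (Tdpoz4). Without the block, the planned test called 0 members in clone 10, clone 4, both clones and either comparison of the clones. Holding the pairs as a block gave 7 in clone 10, 3 in clone 4 and 6 over both, block with DESeq2 7, 4 and 7, block with limma-voom 7, 0 and 6, and block with no filter 7, 4 and 7. The block changed no other call. Leaving out 1 pair under the block gave 6 to 7 in clone 10, 0 to 4 in clone 4 (0 without any of its own pairs) and 4 to 7 over both. Without replicate 1 of both clones, chosen after the data were seen, the block gave 7, 0 and 2, and the unblocked fit 3 between clones in GFP-positive cells.

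Unblocked DESeq2 called 4 in clone 10, 1 in clone 4, 7 over both, 7 between clones in GFP-positive and 6 in GFP-negative cells. Unblocked limma-voom called 1 in clone 10 and 7 between clones in GFP-positive cells. No filter gave 1 over both clones and 1 between clones in GFP-positive cells, with 64 and 137 of all genes higher. Passage as a covariate gave 4 in clone 10, 6 over both, 7 between clones in GFP-positive and 1 in GFP-negative cells. Without 1 library the unblocked calls ranged from 0 to 3 in clone 10 (3 without clone 4 GFP-positive replicate 1), from 0 to 5 over both (5 and 2 when clone 4 GFP-positive replicate 3 or 2 was omitted, 1 when clone 10 GFP-positive replicate 2 was) and from 0 to 7 between clones in GFP-positive cells (7 and 1 without clone 4 GFP-positive replicate 1 and clone 10 GFP-negative replicate 1). RLE factors, the stricter filter and fits of only the groups compared gave 0. The cause of these moves was not tested. Fits that omit a library or pair mostly lack a share of all genes here, so their counts describe the fits and not the members. Summing copies replaces 5 members by 2 sums and gives no count of members.

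The gate change of clone 10 minus that of clone 4, called for no member under any setting, changed sign in 17 cases. With limma-voom it was 0.79 for Tdpoz3, 1.06 for Tdpoz4 and 0.26 for Zfp352, and with the block 0.024 for Tdpoz3 and 0.79 for Tdpoz4. Without 1 library it ran from -3.63 to 1.94 for Tdpoz3, from -2.47 to 1.03 for Tdpoz4, from -1.77 to 1.46 for Zfp352, from -0.52 to 2.55 for Tcstv1 and from -0.75 to 2.28 for Gm5662. Under the block without 1 pair it ran from -2.70 to 0.72 for Tdpoz4 and from -1.39 to 0.87 for Zfp352. Without replicate 1 of both clones it was 0.85 for Zfp352, and 0.73 with the block. Depth limits Tdpoz3, Tdpoz4, AF067061 and Zfp352 in clone 4 GFP-negative cells, where the 3 libraries together held 1, 0, 16 and 10 counts.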
